A study of Mus musculus with 3 samples.

Results

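Genes of translation initiation and elongation factors and of aminoacyl-tRNA synthetases were followed through an epithelial to mesenchymal transition of cultured mouse ovarian surface epithelial cells, which in the animal form a single sheet over the ovary. The members were all probes on the array whose gene name began with Eif or Eef and a digit, or was the symbol of a tRNA synthetase. The rule found 57 probes for 42 genes, of 20371 probes and 9453 named genes on the array. Every member gene passed the filter on dim signals, which removed only 43 of the 20371 probes.

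The cells came from ovaries of superovulated and mated C57/Bl6 females. Each culture was divided, and mesenchymal cells were obtained from one portion by 1 week in 15% fetal bovine serum, while the other portion stayed epithelial in 2.5% serum. Each of 3 cultures was hybridised to 2 arrays, with mesenchymal RNA in Cy5 on one and in Cy3 on the other, giving 6 arrays. Serum level and phenotype went together throughout, and their effects cannot be told apart, and whether the cultures came from separate animals is not given in the sources used here.

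Translation starts when the factor eIF2 brings the initiator tRNA to the small ribosomal subunit, with eIF3 as its scaffold, while eIF4E binds the cap of the mRNA and is held back by the 4E-BP proteins. The exchange factor eIF2B reloads eIF2 with GTP. Kinases that phosphorylate the alpha subunit of eIF2 block this step and at the same time favour translation of ATF4, a transcription factor of the amino acid response, whose known targets include several tRNA synthetases. Each synthetase joins an amino acid to its tRNA, and eEF1 and eEF2 then carry the ribosome along the mRNA.

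Values are given as the log2 ratio of mesenchymal to epithelial RNA, and a negative one means less in mesenchymal cells. A culture's value is the mean of its 2 arrays, and errors are SD over cultures (n = 3 unless stated). A gene was called changed at a limma adjusted p under 0.05 over all features, 1 probe a gene. In mesenchymal cells 5 of the 42 members were lower and 2 were higher. Over all 17591 features 5.91% were called lower, 5.97% higher and 11.9% in either direction. The share of members called lower was thus 11.9% and of members called in either direction 16.7%, and 35 members did not pass. With median centring in place of loess, 9 members were lower and 1 higher, and 13.1% of all features were called in either direction. The members had a median log2 ratio of 0.019, against -0.0030 over all features.

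The 5 lower genes were Eif4ebp1, which encodes 4E-BP1, the inhibitor of eIF4E, and the synthetase genes Nars, Eprs, Cars and Sars. The 2 higher genes were Eif2s1, the alpha subunit of eIF2, and Eif2ak4, which encodes GCN2, the eIF2 kinase that senses uncharged tRNA.

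**Figure D1:**
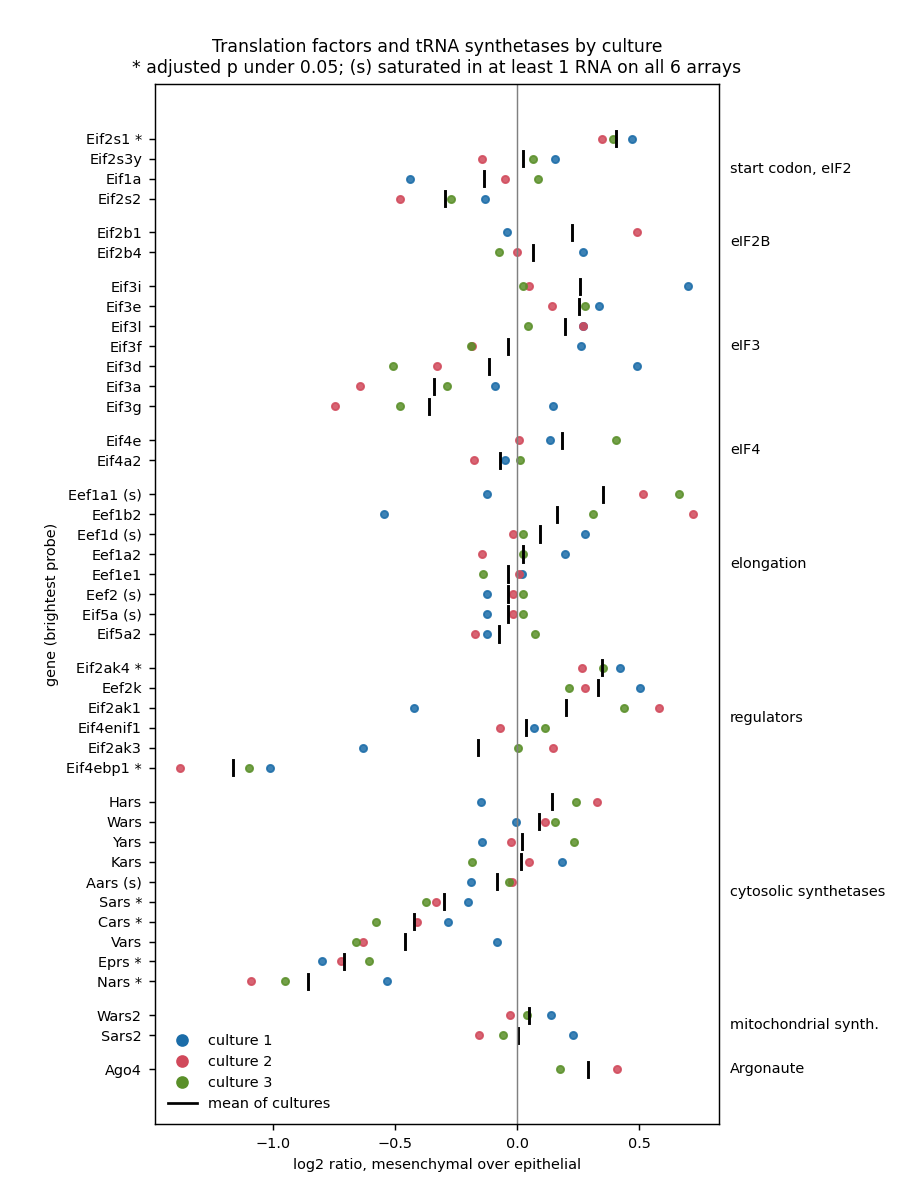
Log2 ratio of mesenchymal over epithelial RNA (x axis) for each of the 42 member genes (y axis, by role), with 1 point for each culture and a bar at the mean. Eif4ebp1 lay farthest left at -1.16, the called synthetases lay left of 0 in all 3 cultures, and culture 1 often lay apart from cultures 2 and 3 among the eIF3 genes.

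Promoter sequences are shown for 4 of the called genes. Eif4ebp1 and Cars had no entry in the promoter table used, and no sequence is shown for Nars. Of the 42 members, 32 had an entry in the RefSeq promoter table of build GRCm38.p6, which holds 300 bases around each start. 3 motifs were searched on both strands. They were TGATGNAA, the form of the ATF4 composite site, CACGTG, the E-box, and TGACGT, the core of the CREB and ATF site. Capitals mark these motifs in the sequences, and all are written 5′ to 3′ in the direction of the gene.

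Eprs (lower), GRCm38.p6 chr1:185362794-185363093, plus strand: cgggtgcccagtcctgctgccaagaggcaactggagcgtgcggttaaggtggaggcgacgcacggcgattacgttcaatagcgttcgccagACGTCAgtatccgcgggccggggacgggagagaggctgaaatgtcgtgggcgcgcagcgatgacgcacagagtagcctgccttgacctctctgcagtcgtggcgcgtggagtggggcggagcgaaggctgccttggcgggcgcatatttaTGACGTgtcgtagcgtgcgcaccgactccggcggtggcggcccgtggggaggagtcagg
Sars (lower), GRCm38.p6 chr3:108445210-108445509, minus strand: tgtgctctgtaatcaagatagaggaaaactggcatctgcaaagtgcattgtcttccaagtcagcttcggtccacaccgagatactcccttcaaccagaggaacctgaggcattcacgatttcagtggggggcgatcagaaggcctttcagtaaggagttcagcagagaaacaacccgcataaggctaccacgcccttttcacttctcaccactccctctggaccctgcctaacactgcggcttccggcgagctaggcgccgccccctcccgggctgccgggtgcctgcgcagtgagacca
Eif2s1 (higher), GRCm38.p6 chr12:78861822-78862121, plus strand: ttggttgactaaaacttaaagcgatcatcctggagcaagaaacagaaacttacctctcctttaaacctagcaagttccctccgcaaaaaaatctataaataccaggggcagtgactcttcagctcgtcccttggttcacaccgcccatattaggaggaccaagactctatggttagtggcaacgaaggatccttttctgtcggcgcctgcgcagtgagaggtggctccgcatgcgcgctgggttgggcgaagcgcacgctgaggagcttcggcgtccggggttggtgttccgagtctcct
Eif2ak4 (higher, 1 of 2 listed starts), GRCm38.p6 chr2:118388862-118389161, plus strand: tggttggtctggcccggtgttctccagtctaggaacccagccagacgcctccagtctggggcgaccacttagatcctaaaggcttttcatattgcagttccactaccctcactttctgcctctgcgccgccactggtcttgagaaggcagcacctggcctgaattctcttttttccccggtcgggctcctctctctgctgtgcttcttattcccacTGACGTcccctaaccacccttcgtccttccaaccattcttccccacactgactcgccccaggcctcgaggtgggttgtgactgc

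The Eprs window held TGACGT in 2 places and the Eif2ak4 window shown held it in 1 place. The other listed Eif2ak4 window, not shown, and the windows of Sars and Eif2s1 held none of the 3 motifs. The 32 members had 44 listed promoters. TGACGT was found in 8 of these 44, or 18.2%, and in 7.51% of all 32851 promoters. CACGTG was found in 10 of the 44, or 22.7%, and in 7.15% of all promoters. TGATGNAA was in 3 of the 44, or 6.82%, and in 3.97% of all promoters. These 3 belonged to the synthetase genes Aars and Yars and to Eef2k. None of them was called, but Eif4ebp1 and Cars had no entry and were not searched. The match in the synthetase gene Yars is shown with its flanks, to set beside the Eprs and Sars windows, which lack this motif.

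Yars, GRCm38.p6 chr4:129189895-129189924, plus strand: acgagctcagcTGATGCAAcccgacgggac

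These matches are descriptions of the letters in the windows and carry no evidence of binding.

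The cytosolic tRNA synthetases were the member group with the most calls among those counted here. Of 10 genes, 4 were lower, 0 were higher and 6 did not pass, and their median log2 ratio was -0.19. Among all features, 5.91% were called lower and 5.97% higher. Nars, which charges the tRNA of asparagine, had a log2 ratio of -0.53 in culture 1, -1.09 in culture 2 and -0.95 in culture 3. It was below 0 on all 6 arrays, with a mean of -0.86 ± 0.29 (adjusted p = 0.00661). Its normalised log2 intensity averaged 13.4 ± 0.16 in mesenchymal cells and 14.3 ± 0.16 in epithelial cells, and the cultures of the 2 groups did not overlap. The call was lost without culture 3 (-0.81).

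Eprs encodes the bifunctional enzyme for glutamic acid and proline, and it had 3 probes. The brightest gave -0.80, -0.72 and -0.61 in cultures 1, 2 and 3, a mean of -0.71 ± 0.10 (adjusted p = 0.00265). It was below 0 on all 3 arrays with mesenchymal RNA in Cy5 and above 0 on 2 of the 3 with it in Cy3. Its dye effect, the part of the Cy5 over Cy3 ratio that does not turn with the RNA, was -1.20 and larger than its change. The second probe had almost no dye effect (-0.059), was below 0 on all 6 arrays and gave -0.49, -0.87 and -0.96, a mean of -0.77 ± 0.25. With every probe tested on its own, that probe passed as well (adjusted p = 0.00795), and the third, at -0.44 ± 0.31, did not (adjusted p = 0.0823). The fall of Eprs thus rested on 2 probes, 1 of which hardly depended on dye, and it was called whichever culture was left out.

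Cars, the cysteine enzyme, had -0.29, -0.41 and -0.58 in cultures 1, 2 and 3 and was below 0 on all 6 arrays. Its mean was -0.42 ± 0.15 (adjusted p = 0.0236). A dimmer probe of Cars gave 0.074 ± 0.054 and did not pass, and with the mean over both probes (-0.18) the call was lost. Sars, the serine enzyme, had -0.20, -0.33 and -0.37, a mean of -0.30 ± 0.09 that lay just under the threshold (adjusted p = 0.0488). Its second probe gave -0.46 ± 0.19 (adjusted p = 0.0286 with every probe tested on its own), while in that test the brighter probe did not pass (adjusted p = 0.0539). Both Sars probes were below 0 in every culture, but neither kept its sign on all 6 arrays. The calls of Cars and Sars were lost without culture 2 and without culture 3. Over 20 alternative settings Sars was called in 8 and Cars in 14.

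**Figure D2:**
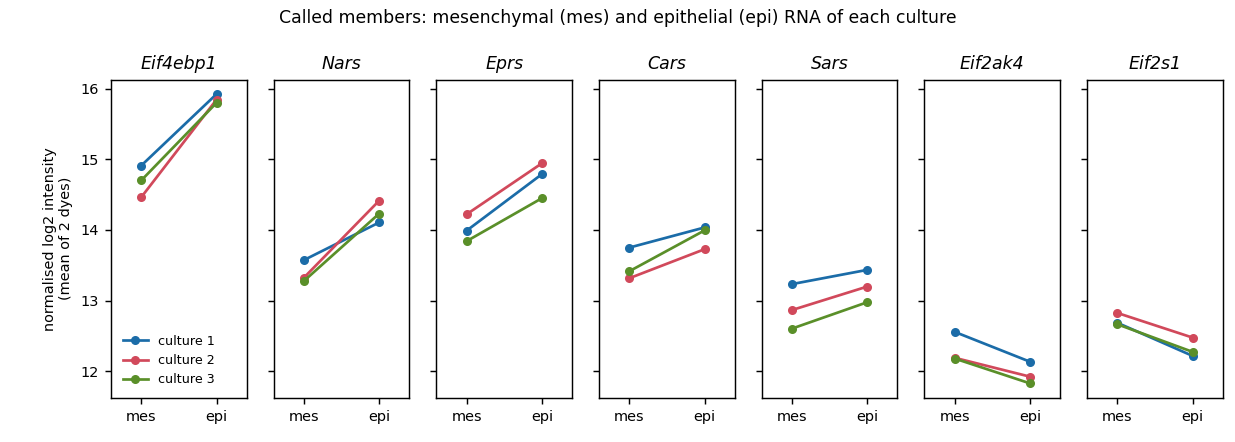
Normalised log2 intensity (y axis) of the 7 called members in mesenchymal and epithelial RNA, each line joining the 2 RNAs of a culture. Eif4ebp1, Nars, Eprs, Cars and Sars were lower in mesenchymal RNA in every culture, and Eif2ak4 and Eif2s1 were higher in every culture.

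Vars, the valine enzyme, listed on the array under the older name Vars2, came close to the threshold. It had -0.08 in culture 1, -0.63 in culture 2 and -0.66 in culture 3 (mean -0.46 ± 0.33, adjusted p = 0.0749), so cultures 2 and 3 were low and culture 1 was near 0. Without culture 1 it was called lower, at -0.65, but that fit rests on 2 cultures and called 32.2% of all features. Hars, the histidine enzyme, had -0.15, 0.33 and 0.24 in cultures 1, 2 and 3 (0.14 ± 0.25, adjusted p = 0.544). Its dye effect of -1.23 was larger, and its ratio was above 0 on 3 arrays and below 0 on 3. In the same fit without culture 1 Hars was called higher, at 0.29. Wars had 0.09 ± 0.08 and Yars 0.020 ± 0.19, neither past the threshold. Kars had 0.017 ± 0.19, with its probe saturated on 3 arrays for each RNA, and did not pass. A dimmer Yars probe was below 0 on all 6 arrays, at -0.29 ± 0.10, but did not pass with every probe tested on its own (adjusted p = 0.0645). Aars, the alanine enzyme, reached saturation on 4 arrays with mesenchymal RNA and on 6 with epithelial RNA, so no fold is given for it (adjusted p = 0.623).

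The mitochondrial synthetases Sars2 (0.0037 ± 0.20) and Wars2 (0.05 ± 0.09) did not pass. Their cultures lay on both sides of 0. Neither had an unadjusted p under 0.05, as limma gave it.

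**Figure D3:**
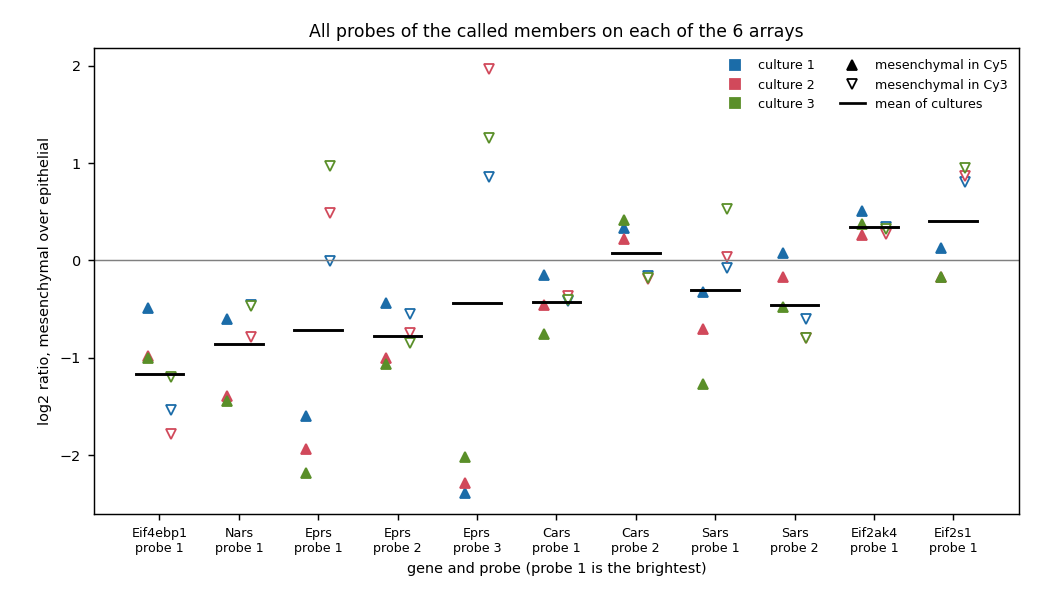
Log2 ratio of mesenchymal over epithelial RNA on each of the 6 arrays (y axis) for every probe of the 7 called genes (x axis), with the culture as colour, the dye of the mesenchymal RNA as symbol and a bar at the mean of the cultures. Eif4ebp1, Nars, Cars probe 1, Eprs probe 2 and Eif2ak4 kept 1 sign on all 6 arrays, while Eprs probe 1, Eprs probe 3, both Sars probes and Eif2s1 crossed 0 with the dye or the culture.

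Dye effects were large among these genes. The dye effect passed the threshold for 34 of 42 members, or 81.0%, against 57.1% of all features, and in 32 of 42 it exceeded the mesenchymal to epithelial difference in size. Of the 42 members 4, or 9.52%, were called with the same sign on all 6 arrays, against 7.24% of all features. They were Eif4ebp1, Nars, Cars and Eif2ak4, 4 of the 7 called members, while 60.9% of all called features kept 1 sign. A ratio from only 1 dye orientation is therefore not given as a result here.

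Of 6 regulators of translation 1 was lower, 1 higher and 4 did not pass, beside 11.9% of all features called in either direction. Eif4ebp1 had the largest change of any member. Its log2 ratio was -1.01 in culture 1, -1.38 in culture 2 and -1.10 in culture 3, a mean of -1.16 ± 0.19 (adjusted p = 0.000976), which is 0.446 times the epithelial level. The log2 intensities were 14.9, 14.5 and 14.7 in mesenchymal cells, against 15.9, 15.8 and 15.8 in epithelial cells, with no overlap. Mesenchymal signal of this probe reached saturation on 0 of 6 arrays and epithelial signal on 3, so the ratio may understate the difference. Eif4ebp1 was called without any 1 culture and was the only member called when the 2 RNAs of a culture were not paired.

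Eif2ak4 had 0.42, 0.27 and 0.35 in cultures 1, 2 and 3 and was above 0 on all 6 arrays, with hardly any dye effect (0.035). Its mean of 0.35 ± 0.08 (adjusted p = 0.0288) is a rise to 1.27 times the epithelial level. The call was lost without culture 2 and without culture 3, and the value then stayed at 0.39 and 0.34. The other eIF2 kinases on the array did not pass. Eif2ak3, which encodes PERK, the kinase of endoplasmic reticulum stress, had -0.63 in culture 1, 0.15 in culture 2 and 0.0024 in culture 3 (adjusted p = 0.64). Eif2ak1, the heme-regulated kinase, had -0.42 in culture 1 but 0.58 and 0.44 in cultures 2 and 3 (adjusted p = 0.648). Its dye effect of -1.13 was larger, and its ratio was above 0 on 3 arrays and below 0 on 3. Without culture 1 Eif2ak1 was called higher, at 0.51, in a fit of 2 cultures that called 32.2% of all features. Eef2k, whose kinase inhibits eEF2, was above 0 in all cultures at 0.50, 0.28 and 0.21 but just missed the threshold (0.33 ± 0.15, adjusted p = 0.0562). Eif4enif1, the importer of eIF4E into the nucleus, had 0.037 ± 0.10 and did not pass.

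Of the initiation factors, 1 of 15 was called, beside 11.9% of all features, and the median log2 ratio was 0.024. Eif2s1, which the array lists as Eif2a, had 0.47, 0.35 and 0.39 in cultures 1, 2 and 3, a mean of 0.40 ± 0.06 (adjusted p = 0.0161) or 1.32 times the epithelial level. Of its 6 array ratios 4 were positive and 2 negative, and the dye effect was -0.47. The call was lost without culture 2 and without culture 3. Eif2s2, the beta subunit of the same complex, had -0.30 ± 0.18 and did not pass (adjusted p = 0.0944), and its second probe had the other sign, at 0.17 ± 0.05.

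Eif2s3y, a gene of the Y chromosome that encodes a gamma subunit of eIF2, is a check on the array, since the ovaries were from females. Its log2 ratio was 0.15, -0.14 and 0.065 in cultures 1, 2 and 3, with no call (adjusted p = 0.913). The scanner software marked its spot as well above background for both RNAs on all 6 arrays, a mark also given to 18.5% to 81.5% of the 162 negative control spots. Where the signal of the Eif2s3y probe comes from was not tested. Eif1a, which scans for the start codon with eIF1, had -0.14 ± 0.27.

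The eIF3 genes showed no call in any of 7 (limma), though 3 had an unadjusted p under 0.05 against 23.7% of all features. Culture 1 stood apart here. The median of the 7 log2 ratios was 0.27 in culture 1, -0.18 in culture 2 and -0.19 in culture 3, against medians over all features of -0.0010, -0.017 and 0.015. Eif3d had 0.49 in culture 1 but -0.33 and -0.51 in cultures 2 and 3. Eif3g went the same way with 0.15, -0.75 and -0.48, and Eif3f with 0.26, -0.18 and -0.19. For these 3 subunits the sign of the culture mean was thus opposite in culture 1, but single arrays also changed sign with the dye. In culture 1, with mesenchymal RNA in Cy5 and in Cy3, Eif3d had 1.06 and -0.076 and Eif3g 0.60 and -0.30. Eif3f had -0.75 and 0.38 in culture 2 and -1.21 and 0.83 in culture 3, in the same order. Eif3g was below 0 on both arrays of cultures 2 and 3. Whether the difference varies between cultures was not tested, as a culture is 1 sample.

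The remaining eIF3 genes did not share 1 direction. Eif3a, the largest subunit, was below 0 in all cultures at -0.09, -0.64 and -0.29 (adjusted p = 0.127), and its second probe gave -0.54 ± 0.58. Eif3e was above 0 in all 3 cultures, at 0.34, 0.14 and 0.28 (adjusted p = 0.0892), but its dye effect of -1.65 was far larger. Eif3i had 0.26 ± 0.39 and Eif3l 0.19 ± 0.13, neither past the threshold. Without culture 1, 4 of the 7 eIF3 genes were called, Eif3a, Eif3d and Eif3g lower and Eif3e higher, in a fit of 2 cultures that called 32.2% of all features.

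The eIF2B subunit genes Eif2b1 (0.22 ± 0.38, n = 2) and Eif2b4 (0.064 ± 0.18) did not pass, with no unadjusted p under 0.05. Eif2b1 was flagged as an outlier on 1 array of culture 3, which left 2 cultures. A dimmer second probe gave 0.13 ± 0.42 over 3 cultures. Eif4e, the cap-binding protein that 4E-BP1 inhibits, had 0.14, 0.0065 and 0.41 in cultures 1, 2 and 3 (0.18 ± 0.20, adjusted p = 0.334). Eif4a2, an RNA helicase of the cap complex, had -0.07 ± 0.09 (adjusted p = 0.672).

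The elongation factors gave no call among 8 genes, and none had an unadjusted p under 0.05 in limma. Of the 8, 4 were saturated on at least 1 array. The brightest probes of Eef2, the translocase, and of Eif5a were saturated for both RNAs on all 6 arrays, so no fold is given for them. Eef1d was saturated for mesenchymal RNA on all 6 arrays and for epithelial RNA on 5, and no fold is given for it either (adjusted p = 0.623). A dimmer Eef2 probe, which was not saturated, gave 1.28 in culture 1 but -0.40 and -0.03 in cultures 2 and 3.

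Eef1a1, which delivers charged tRNA to the ribosome, had 4 probes, and none passed. The brightest was saturated in mesenchymal RNA on all 6 arrays and in epithelial RNA on 4, and gave -0.12, 0.51 and 0.66 in cultures 1, 2 and 3, which saturation of both RNAs leaves without a usable fold (adjusted p = 0.242). The other 3 probes averaged -0.010, 0.071 and 0.072. Eef1a2, its paralogue of muscle and brain, had 0.024 ± 0.17, and since the gene pair is similar in sequence, signal of one on the probe of the other was not tested. Eef1b2 spread widely over cultures, at -0.55, 0.72 and 0.31 (adjusted p = 0.772). Eef1e1, a scaffold of the multi-synthetase complex despite its name, had -0.037 ± 0.089, and Eif5a2 had -0.08 ± 0.13.

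Ago4, an Argonaute gene of small RNA silencing that the array lists as Eif2c4, fell under the naming rule though it is no translation factor. It was measured in 2 cultures, at 0.41 and 0.17 (adjusted p = 0.168).

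The cultures differed in how far they shared these patterns. Across the members (at most 42 genes, which share arrays and dyes within a culture), Pearson's r of the log2 ratios was 0.91 for cultures 2 and 3, against 0.89 over all features. It was 0.35 for cultures 1 and 2, against 0.61 over all features, and 0.38 for cultures 1 and 3, against 0.65. Without culture 1, 21 members were called, including all 7 of those above, and 32.2% of all features. Each such fit rests on 2 cultures, and its p-values lean on the spread that limma shares over all features. Without culture 2 there were 3 (Eif4ebp1, Eprs and Nars) with 7.19% of all features, and without culture 3 there were 2 (Eif4ebp1 and Eprs) with 4.88%.

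Several members had more than 1 probe. Of the 12 such genes, 5 had probes that all shared a sign and 7 did not. With every probe tested on its own, 8 of 57 member probes were called, 6 lower and 2 higher. Of all 20185 probes 11.3% were called, 5.66% lower and 5.6% higher.

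Other genes of translation and its control were counted in lists that hold no member; Ppp1r15a stands in the first and the last of the 3. Of 27 measured genes of release, mitochondrial translation, poly(A) binding and mTOR signalling, 3 were lower and 0 higher, and 24 did not pass, with a median of 0.0057. The lower genes were Mknk1, a kinase of eIF4E (-0.61 ± 0.19), and Ppp1r15b (-0.43 ± 0.10) and Ppp1r15a (-0.42 ± 0.23), which direct a phosphatase to eIF2. The Ppp1r15a call was close to the threshold (adjusted p = 0.0481). Ppp1r15b shared 1 sign on all 6 arrays, Ppp1r15a on 5 and Mknk1 on 4. Of 55 cytosolic ribosomal protein genes, 3 were higher and 0 lower with a median of -0.04, but 48 of them were saturated on at least 1 array, which pulls ratios to 0. The higher genes were Rpl27a (0.60 ± 0.07), Rpsa (0.43 ± 0.09) and Rpl22 (0.40 ± 0.20). Rpl27a and Rpsa each shared 1 sign on only 3 of the 6 arrays, and Rpl22 on 5. Over all features 5.97% were called higher and 5.91% lower.

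Known ATF4 targets and other amino acid response genes were mostly lower in mesenchymal cells. Of 25 measured, 18 were lower, 0 were higher and 7 did not pass, with a median of -0.95, beside 5.91% of all features called lower. The cystathionine lyase gene Cth had -2.39 ± 0.06, the pseudokinase gene Trib3 -2.21 ± 0.07, the mTOR inhibitor gene Ddit4 -1.74 ± 0.11 and the serine synthesis gene Psph -1.48 ± 0.08. Each of these 4 was below 0 on all 6 arrays. Atf4 itself had -0.31 ± 0.21 and did not pass (adjusted p = 0.104). Its epithelial signal was saturated on all 6 arrays, so the ratio may understate the difference. Whether the falls of the synthetases and of this list share a cause was not tested.

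**Figure D4:**
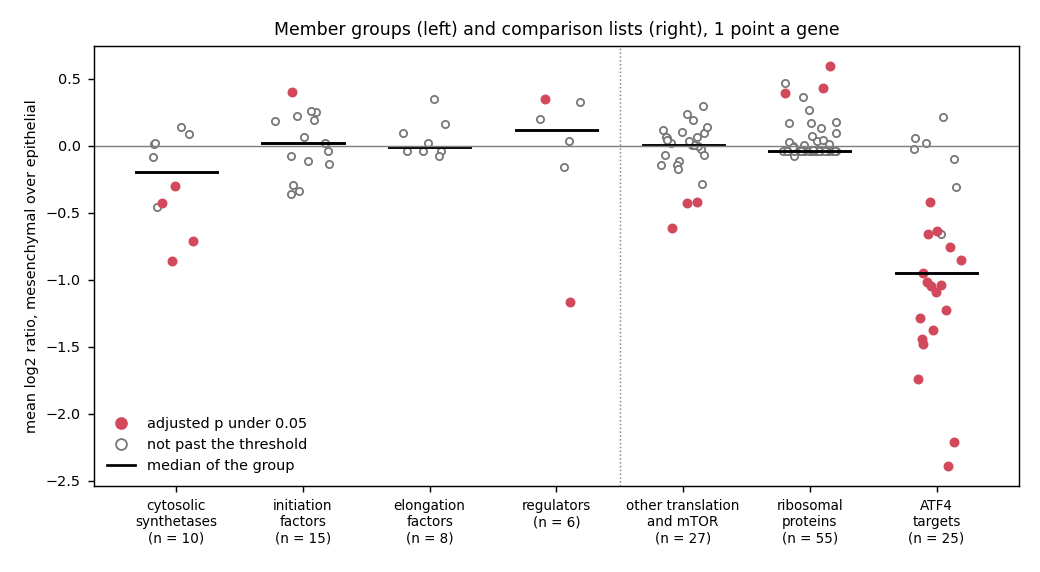
Mean log2 ratio of mesenchymal over epithelial RNA (y axis) for the genes of 4 member groups and 3 comparison lists (x axis), filled where adjusted p was under 0.05, with a bar at the group median. Cytosolic synthetases had a median of -0.19 with 4 of 10 called lower, beside 5.91% of all features. Initiation and elongation factors lay around 0, and ATF4 targets had a median of -0.95. Of the 55 ribosomal protein genes, 48 were saturated on at least 1 array.

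Markers of the labelled cell type were present, and most of those measured were lower in mesenchymal cells. Of 9 measured markers of the ovarian surface epithelium, 6 were lower and 0 higher, beside 5.91% of all features called lower. The other 3 (Krt18, Gata4 and Nr2f1) did not pass. The summed intensity of the 9 was 140255 to 167275 in mesenchymal RNA and 291924 to 320893 in epithelial RNA. Of the 9, 3 were saturated on at least 1 array, which limits these sums. Of the markers of other cells, 1 of 8 granulosa genes was lower, 2 of 9 theca and stroma genes were lower and 1 higher, 1 of 5 smooth muscle genes was lower, 1 of 7 oocyte genes (Ddx4) was higher, and 0 of 4 endothelial and 0 of 4 leukocyte genes were called by limma (2 and 0 at an unadjusted p under 0.05). In these bulk RNAs fewer cells of a type and less RNA per cell cannot be told apart, and the part of the marker changes in the members' results was not tested.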

How the data were processed

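RNA of 3 split cultures was hybridised to 2-colour Agilent arrays, 2 dye-swapped arrays a culture. The deposited scanner files hold spot intensity per channel, per the file headers. The deposited value table gives log10 ratios; each is the difference of the log10 ratios of a culture's 2 arrays, divided by 2. The submitters' processing notes name limma.

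Here mean signals were corrected by normexp (offset 50) and loess-normalised within arrays (limma 3.58.1, R 4.3.3). Ratios were turned to mesenchymal over epithelial, converted to log2 from the deposited intensity values, and averaged over the 2 arrays of a culture. Outlier-flagged spots were left out (61 to 467 an array, but 1640 on the culture 3 array with mesenchymal RNA in Cy3). A probe was kept where the scanner software marked 1 RNA as well above background on 4 or more of the 6 arrays. The brightest probe stood for a gene, with at least 2 cultures, and limma tested the mean against 0 with Benjamini-Hochberg adjustment over 17591 features. In simulated data for this comparison (17591 features) it recovered 83.6%, 98.5% and 100% of changes of 0.5, 1 and 2 log2 units. It also called 16 unchanged features. The simulated noise was independent between cultures and features, and no simulated culture stood apart as culture 1 did, so recovery in the data may be lower. The 3 cultures limit the precision.

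Of the members, 40 were named by gene ID and 2 by symbol, and 12 names were updated. No fold is given where both RNAs of a probe were saturated on most arrays. Named were all called members, the 2 brightest of role groups with fewer than 2 calls, a set of core factors, and up to 4 called genes of each comparison list; the other members are given to account for all. The members and lists were chosen with earlier results of these data known. The replicate numbers pair the samples because each culture was split between both conditions, per the series' design text.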

Additional observations from a re-analysis of the deposited data

How the results depend on the processing

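The 7 calls among members were the same 7 without background correction, without the filter on dim probes, with a stricter filter and with outlier-flagged spots kept. These 7 genes were marked well above background for both RNAs on every array, so neither filter setting could remove them. With both RNAs of a culture as independent samples (no replicate block), 244 features and 1 member, a regulator, were called, with 0 cytosolic synthetases and 0 start factors. At an adjusted p under 0.01 there were 940 features and 3 members (2 cytosolic synthetases, 1 regulator, 0 start factors). Leaving out 1 culture gave 822 to 5157 features and 2 to 21 members. By role these were 1 to 6 cytosolic synthetases, 0 to 2 start factors, 1 to 4 regulators, 0 to 4 eIF3 genes, 0 to 2 elongation factors, and 0 to 1 each for eIF2B, eIF4 and Argonaute.

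Arrays with mesenchymal RNA in Cy5 alone called 7082 features, or 40%, and 23 members. By role these members were 3 start, 2 eIF2B, 3 eIF3, 1 eIF4, 2 elongation, 5 regulators and 1 mitochondrial synthetase. The others were the cytosolic synthetases Cars, Eprs, Nars, Sars, Hars and Yars. Eif2b1 stood at -1.08 and Eif2s1 at -0.067, both of opposite sign to the main value. Arrays with it in Cy3 alone called 5885 and 19 (3 start, 1 eIF2B, 4 eIF3, 2 eIF4, 1 elongation, 1 mitochondrial synthetase), with Eef1a2 at -0.50, Eif2s3y at -0.36, Eif4a2 at 0.53, Eprs at 0.49, Sars at 0.16 and Sars2 at -0.55, all of opposite sign to the main value; a single orientation keeps the dye effect by construction.

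Median centring called 10 members, 9 lower and 1 higher, and 13.1% of all features. The members called were 2 start factors, 2 eIF3 genes, 1 regulator and the cytosolic synthetases Cars, Eprs, Nars, Sars and Vars, with Eif2ak4 lost. A dye term over 6 arrays called 9 members, 4 higher and 5 lower, and 14.2% of all features. It lost Sars and added 1 eIF3 gene (Eif3e), Vars and Eef2k. The 6 arrays came from 3 cultures, and the correlation estimated between a culture's arrays in that fit was -0.24. A value below 0 shrinks the error, so the added calls may look firmer than 3 cultures allow. With the dye term and the culture 3 array with mesenchymal RNA in Cy3 left out, 2 cytosolic synthetases were called, Cars being lost as well. That fit called 9.45% of all features. Sars was called in 8 of 20 alternatives; it was lost also with the processed signals and with the deposited value table (both adjusted p = 0.064), with every probe tested, without saturated probes and with a trended, robust variance. Leaving out saturated probes (no value for Eif4ebp1) and a trended, robust variance each left 1 regulator. Of all features, 11.6% were called without saturated probes and 8.46% with the trended, robust variance. The cause of these shifts was not tested beyond what is said here. Saturation limits the ratios of 10 of the 42 members.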
